A study of Caenorhabditis elegans with 4 samples.

Results

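The binding sites described here are those of the transcription factor NHR-11 on chromosome IV of Caenorhabditis elegans at L4, the larval stage before adulthood. They were taken by chromosome name from 3 deposited lists of sites. Chromosome IV held 508 of the 2612 sites of ChIP replicate 1 (19.4%), 572 of the 2834 sites of ChIP replicate 2 (20.2%) and 1669 of the 6799 sites of a list for the whole series (24.5%), called the series-level list below. Positions are in build WS220 of WormBase. The chromosome was divided by the midpoint of each site into a left arm below 3.896 Mb, a centre up to 12.970 Mb and a right arm above it. Sites in a window from 9.04 to 9.11 Mb, of which the lists hold 7 (series-level), 2 (replicate 1) and 3 (replicate 2), are described apart. The summaries of position, width, clusters and gaps leave them out, except for the counts by 1-Mb bin.

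NHR-11 belongs to the nuclear hormone receptors, transcription factors that bind DNA through zinc fingers and in many cases respond to small lipophilic ligands. The family is greatly expanded in C. elegans, and for most of its members no ligand is known. Worm autosomes have a centre with low recombination that is rich in conserved and essential genes, and arms with higher recombination and more repeats. Chromosome IV also carries most of the worm's piRNA genes, in broad clusters.

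All libraries came from strain OP305, which is unc119(ed3) and carries the transgene wgIs305 with nhr-11 fused to TY1, EGFP and FLAG together with a copy of unc119. Per the labels the transgene was introduced by bombardment, the strain was outcrossed 3 times, and the fusion protein follows the expression pattern of nhr-11. No deletion of the chromosomal nhr-11 gene is listed. Hermaphrodites were grown at 20 °C, crosslinked with 2% formaldehyde, and chromatin bound by the tagged protein was collected with an antibody against GFP. There were 2 ChIP libraries and 2 input libraries of sonicated total DNA from the same strain and stage. Whole worms were used, so the sites are not assigned to a tissue.

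For every site the authors deposited its borders and 1 significance value. The value was turned into a −log10 value, so that a higher number is a stronger site, and was used to rank sites within their own list. Nothing in the labels states that the 2 replicates were grown as separate cultures, so their differences show only the spread between 2 libraries, which may be technical. The lists carry no read counts, and the depth of a site is therefore unknown. Sites from input DNA or from an untagged strain were not analysed here. Genes, exons and promoters at the sites were likewise not analysed, since no annotation or sequence of WS220 was used.

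NHR-11 sites were densest in the centre of IV, somewhat less dense in the left arm and sparsest in the right arm. In replicate 1 the centre held 34.7 sites per Mb, the left arm 28.2 and the right arm 18.6. In replicate 2 the values were 38.5 in the centre, 33.4 in the left arm and 20.4 in the right arm. The order was the same in both replicates. The centre was 1.86 times as dense as the right arm in replicate 1 and 1.89 times in replicate 2, but 1.23 and 1.15 times as dense as the left arm. Site numbers behind these densities were 312, 110 and 84 for centre, left arm and right arm in replicate 1, and 347, 130 and 92 in replicate 2.

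**Figure D1:**
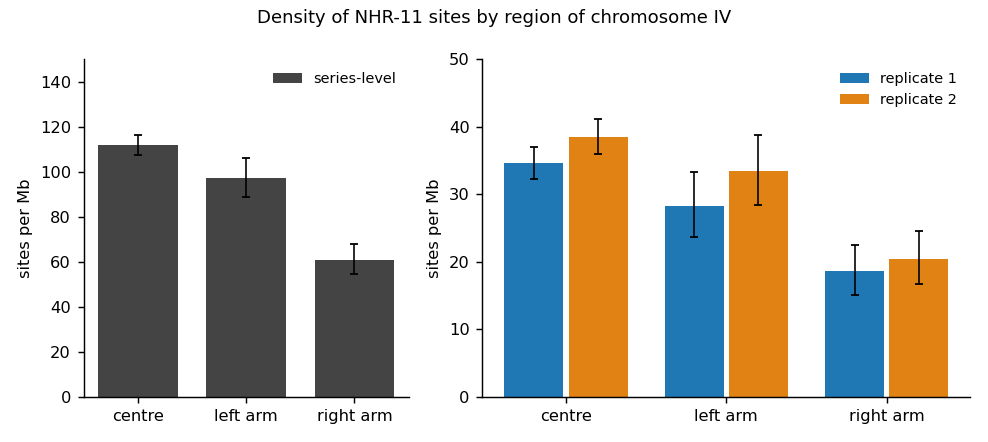
Sites per Mb in the centre, left arm and right arm of chromosome IV, in the series-level list (left panel) and in each ChIP replicate (right panel), without the window at 9.04 to 9.11 Mb. Bars are densities, and error bars are exact 95% intervals of each region's share of the list, scaled to density. In all 3 lists the right arm is lowest, at 60.9, 18.6 and 20.4 sites per Mb.

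The centre took up 51.7% of the covered length, the window left out, and held more than that share of the sites. It contained 237 of the 389 replicate 1 sites that overlap a replicate 2 site (60.9%, 95% interval 55.9 to 65.8, exact binomial adjusted p = 0.000305, two-sided). The share was 61.7% (57.3 to 65.9) in replicate 1 as a whole and 60.98% (56.8 to 65.01) in replicate 2, each with an exact binomial adjusted p of 1.34e-05. In the series-level list it was 60.6% (58.3 to 63.01). Adjustment was over the 4 lists, which share their libraries and are not separate evidence. Neighbouring sites depend on each other, so these p-values cover the counting of sites and not replicates. The test sets the centre against both arms together, and the centre was not tested against the left arm alone. Of the 389 sites, the left arm held 22.1% (18.1 to 26.6) on 22.4% of the length. The right arm held 17.0% (13.4 to 21.1) on 25.9%.

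The left arm is 46.3% of the combined length of the arms and held 56.7% of the arm sites in replicate 1 (110 of 194, 49.4 to 63.8), 58.6% in replicate 2 (130 of 222, 51.8 to 65.1) and 56.6% of those found in both (86 of 152, 48.3 to 64.6). Exact binomial tests of these shares, chosen after the densities had been seen, gave adjusted p of 0.00523, 0.000533 and 0.0116 over 4 lists. In the plot of accumulated sites the curves follow the line of even spacing through the left arm and leave it in the centre.

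**Figure D2:**
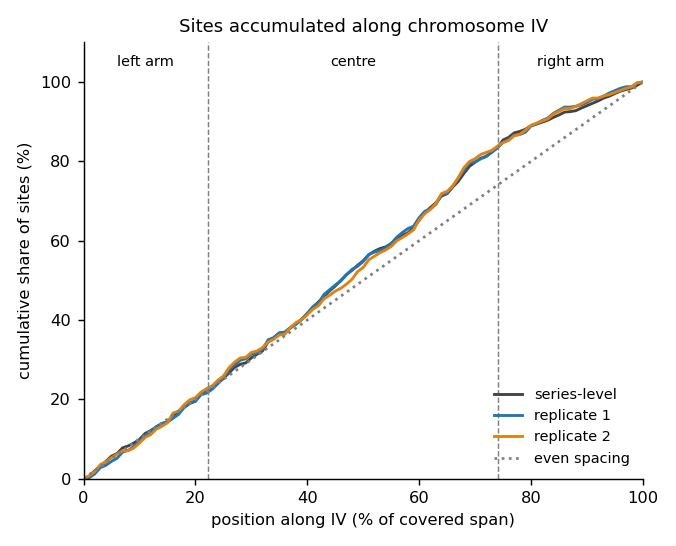
Cumulative share of chromosome IV sites (vertical axis, %) against position along the chromosome (horizontal axis, % of the covered span), 1 line per list, with dashed lines at the arm boundaries and a dotted line for even spacing. The 3 lists run together: at 50% of the span they have reached 54.9% (series-level), 54.7% (replicate 1) and 53.3% (replicate 2) of their sites.

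By 1-Mb bins, with the window's sites counted, the stretch from 11 to 12 Mb was the fullest in all 3 lists. It had 145 series-level sites, 50 in replicate 1 and 58 in replicate 2. Of the replicate 1 sites there, 41 were found in replicate 2. The bin from 4 to 5 Mb came next among sites found in both replicates, with 34 of its 41 replicate 1 sites repeated. The thinnest full bins lay on the right arm. From 15 to 16 Mb replicate 1 had 13 sites and replicate 2 had 17, and from 16 to 17 Mb they had 15 and 14. The median −log10 value was 5.36 in the centre, 4.82 in the left arm and 5.40 in the right arm in replicate 1, and 5.22, 4.69 and 5.76 in replicate 2. No test of these medians was made.

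Most sites on IV were under 1 kb wide. The median was 372 bp in replicate 1, with a middle range (first to last quartile) of 281 to 516.5 bp, and 363 bp in replicate 2, with 274 to 524 bp. The replicate 1 sites found in both had a median of 402 bp. Sites of 1 kb or more were few, with 25 of 506 in replicate 1 (4.94%) and 29 of 569 in replicate 2 (5.1%). They made up 3.85% of the centre sites, 5.45% of the left-arm sites and 8.33% of the right-arm sites in replicate 1, and 5.48%, 2.31% and 7.61% in replicate 2. The arm counts behind these shares are small, with 6 and 3 sites on the left arm and 7 and 7 on the right, and no test was made. Wider sites had higher −log10 values, with Spearman's rho across sites of 0.71 for the series-level list, 0.57 for replicate 1 and 0.60 for replicate 2. Sites share their library, and this is a description across sites.

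At the other end, the series-level list held many very narrow sites on IV. Under 50 bp were 110 of its 1669 IV sites (6.59%, 5.45 to 7.89), against 178 of 5130 on the other 5 chromosomes (3.47%, 2.99 to 4.01). Fisher's exact test, chosen after the values had been seen, gave p = 1.73e-07 (two-sided, unadjusted). Because the contrast was picked from these same data, that p describes it and is no separate support. It covers only the counting of sites, which depend on their neighbours. Of the other chromosomes, V had the highest share, 3.91%. In the replicates the share of such sites on IV was 1.57% in each. Of the 110 narrow sites, 107 were found in neither replicate, 3 in 1 and 0 in both, against 59.7% of all series-level IV sites in neither. Their median −log10 value was 3.79, and in the decile of IV sites that holds this value 98.8% were in neither, whatever their width.

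A minority of the repeated sites on IV lay in clusters. A cluster was taken as 3 or more sites with at most 5 kb between the end of 1 and the start of the next. By this definition 67 of the 389 sites found in both replicates (17.2%) lay in 20 clusters, of which 14 were in the centre, 2 in the left arm and 4 in the right arm. All 389 sites, in clusters or not, divided into 237, 86 and 66 in the same order. Most clusters (15) had 3 sites, 3 had 4 and 2 had 5, and their median length was 7505 bp. The number of clusters moved with the limit and the list. It was 6 with at most 2 kb and 28 with at most 10 kb between sites, and the lists of replicate 1 and replicate 2 alone gave 31 and 42.

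One of the clusters of 5, at 10499955 to 10513092, had different strongest sites in the replicates. In replicate 1 its shared sites ran from 4.56 to 22.1 in −log10 value, and the 5 replicate 2 sites from 4.85 to 21.8. The site with 22.1 in replicate 1 had 18.9 in replicate 2, and the site with 21.8 in replicate 2 had 11.4 in replicate 1. The other, at 4209925 to 4216477, was made of weak sites in the replicates. The highest shared site had 5.61 in replicate 1 and the highest site 8.16 in replicate 2, where 4 sites covered the stretch, while the strongest series-level site there had 32.5. Clusters of 4 lay at 7382076 to 7392137, at 4014840 to 4025231 and, on the right arm, at 13877694 to 13888199. In the right-arm one the strongest replicate 1 site had 20.01 and the strongest replicate 2 site 18.6. All 3 lists gave 4 sites each at 7382076 and at 13877694.

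Between neighbouring sites found in both replicates the median gap was 25394.5 bp, with a middle range of 5469 to 62056 bp. Of 388 gaps, 91 (23.5%) were 5 kb or shorter and 43 were longer than 100 kb. The gaps over 100 kb include the stretch across the window, between the sites at 8978110 to 8978390 and at 9147007 to 9147233. That stretch is unbroken only because the repeated sites of the window are left out. The median gap was 20818.5 bp in the centre, 32677 bp in the left arm and 33287 bp in the right arm. The right arm, with 66 of the 389 sites, held 15 of the 43 longest gaps.

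The longest gap ran over 384 kb on the right arm, from 16865812 to 17249686. The series-level list had 12 sites in it, of which 8 were in neither replicate, while replicate 1 had 0 and replicate 2 had 4. The next gap, 261 kb at 15908496 to 16169586, was also on the right arm and held 1 replicate 1 site, 0 replicate 2 sites and 14 series-level sites. In the centre, the stretch at 4788673 to 5036517 (248 kb) had 0 sites in both replicates and 7 in the series-level list. The stretch at 5289295 to 5535945 (247 kb) held 13 series-level sites, 0 of replicate 1 and 2 of replicate 2.

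The gap of 245 kb at 12834721 to 13080184 spans the boundary of centre and right arm. It held 5 sites in replicate 1 and 4 in replicate 2 that do not overlap each other, and 36 in the series-level list. In the series-level list the longest gap on IV was 184 kb, at 15085766 to 15270036.

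Most replicate sites on IV were found in the other replicate. An overlap of at least 1 bp with replicate 2 was found for 391 of the 508 sites of replicate 1 (76.97%, 73.1 to 80.6), against 1632 of 2104 (77.6%) on the other 5 chromosomes and 77.5% over all chromosomes. Of the 572 replicate 2 sites, 394 (68.9%, 64.9 to 72.7) were found in replicate 1, against 1630 of 2262 (72.1%) on the other 5 chromosomes and 71.4% over all. Neither difference between IV and the other chromosomes passed Fisher's exact test (adjusted p = 0.953 and 0.400 over 6 tests, two-sided). The differences were -0.60 and -3.18 percentage points, and they changed sign to 3.24 and 3.13 when only the stronger 50% of each list was used, again without passing the test.

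Nor did the difference between centre and arms of IV pass the test. The share was 76.0% in the centre and 78.4% in the arms in replicate 1 (adjusted p = 0.953), and 68.6% and 69.4% in replicate 2 (adjusted p = 0.953, Fisher's exact test).

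The share of repeated sites followed their strength. Among the strongest 25% of the IV sites, 127 of 127 from replicate 1 and 142 of 143 from replicate 2 were found in the other replicate. Among the weakest 25%, with −log10 values of 3.00 to 3.89 in replicate 1 and 3.01 to 3.72 in replicate 2, it was 47.2% (38.3 to 56.3) and 34.3% (26.5 to 42.7). The median width followed the same order, with 557 bp for the strongest and 285 bp for the weakest 25% of replicate 1, and 579 and 269 bp in replicate 2.

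The strongest replicate 1 site on IV without a partner was at 13030867 to 13031377 on the right arm, inside the 245-kb gap. It had a −log10 value of 7.43 and rank 162 on IV, and the nearest replicate 2 site was 4520 bp away. In replicate 2 the strongest such site was at 5805445 to 5805950 in the centre, with 9.31 and rank 128 on IV. Both are in the series-level list, with 11.6 and 18.2.

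Where 1 site of each replicate overlapped 1 of the other, position and strength were close. Such pairs were chosen by overlap, which itself limits the distance of their midpoints, and sites without a partner are left out. Outside the window there were 379 such pairs. Their midpoints were a median of 29 bp apart, and 71.2% lay within 50 bp. Across sites, the −log10 values of the pairs gave a Spearman's rho of 0.81 and a Pearson's r of 0.93, against 0.78 and 0.94 over 1585 pairs on the other 5 chromosomes. Replicate 1 had the higher value in 170 of the 379 pairs (44.9%). These are descriptions across sites of the same libraries. The median distance of midpoints was 31.5 bp in the centre (231 pairs), 31.5 bp in the left arm (85 pairs) and 18 bp in the right arm (63 pairs).

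**Figure D3:**
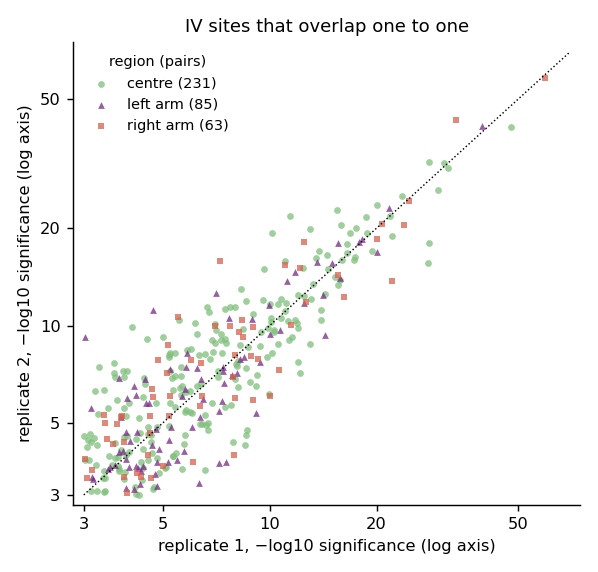
−log10 significance in replicate 2 (vertical) against replicate 1 (horizontal), both on log axes, for the 379 pairs of chromosome IV sites that overlap one to one outside the window. Symbols mark the region, and the dotted line marks equal values. Relative to their size, values spread most at the low end, but some strong pairs also lie off the line. A centre site has 27.9 in replicate 1 and 15.6 in replicate 2, while the right-arm site at the upper end has 59.5 and 58.3.

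The series-level list held far more sites on IV than the replicates shared. Of its 1669 IV sites, 388 (23.2%, 21.2 to 25.4) were found in both replicates, 284 (17.0%, 15.2 to 18.9) in 1 and 997 (59.7%, 57.3 to 62.1) in neither. Over all chromosomes 29.3% were found in both and 51.2% in neither. On the other 5 chromosomes the share in both was 31.3% (1604 of 5130), which differed from IV by Fisher's exact test (adjusted p = 1.52e-09 over 6 tests, -8.02 percentage points). This p covers the counting of sites, and neighbouring sites depend on each other. Chromosome I stood next to IV with 27.4%, and III was highest with 36.7%. The series-level list was also longest on IV against the replicates. It held 3.09 times the mean site number of the 2 replicates on IV and 2.72 times on I. On II, III, V and X it held 2.09 to 2.36 times that number. The part of this length in the share was not tested. Sites found in both replicates had a median series-level −log10 value of 19.3 on IV and 14.8 on the other 5 chromosomes, where I had 17.8 and II, III, V and X had 12.7 to 14.6. The replicates' own values did not set IV apart. Over all their sites, repeated or not, IV had medians of 5.25 (replicate 1) and 5.21 (replicate 2). The single other chromosomes ran from 4.80 to 5.29 and from 4.87 to 5.50. The median width of the series-level sites found in both was 488.5 bp on IV and 531 bp on the other 5 chromosomes. Sites found in neither had medians of 223 bp on IV and 277 bp on the others.

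Within IV the share found in both did not differ by test between regions. It was 23.3% in the centre and 23.1% in the arms (adjusted p = 0.953, Fisher's exact test, a difference of 0.22 percentage points), and the sign of this difference turned under a stricter overlap. The left arm had 22.7% and the right arm 23.6%. The share found in neither was 59.1% in the centre, 60.4% in the left arm and 61.1% in the right arm. Across the 1-Mb bins, with the window's sites counted, it ran between 51% (4 to 5 Mb) and 69.1% (16 to 17 Mb).

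**Figure D4:**
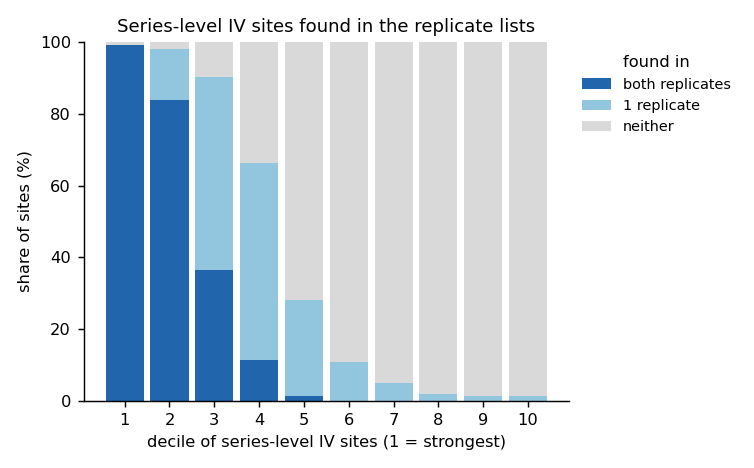
Share of series-level chromosome IV sites (vertical axis, %) found in both replicates, in 1 or in neither, by decile of −log10 significance (horizontal axis, 1 is the strongest). In decile 1, 166 of 167 sites are in both replicates, in decile 5 it is 2 of 167, and in deciles 6 to 10 it is 0.

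Nearly all series-level sites of IV with a −log10 value of 21.1 or more, the strongest decile, were in both replicates (166 of 167). The exception lies in the window. In decile 3, with values from 9.53 to 12.8, 36.5% were in both and 53.9% in 1, and in decile 5, from 6.17 to 7.58, 1.2% were in both and 71.9% in neither. Every replicate site has a −log10 value of at least 3.00 in its own list, and the part of this limit in these shares was not tested. Outside the window, the strongest series-level site found in neither replicate was at 10331815 to 10333265 in the centre, 1451 bp wide, with 14.4 and rank 293 on IV. Conversely the series-level list held 506 of the 508 IV sites of replicate 1 and 565 of the 572 of replicate 2.

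The strongest NHR-11 site of chromosome IV was on the right arm at 14032616 to 14034689. It had a −log10 value of 156 in the series-level list, 59.5 in replicate 1 and 58.3 in replicate 2, and ranked 1 on IV in each. Its width was 2074, 1931 and 2035 bp in the same order. The site that ranked 2 on IV in all 3 lists was in the centre at 10933721 to 10937296, with 135 in the series-level list, 48.9 in replicate 1 and 43.7 in replicate 2. In replicate 2 it was split into 2 sites, of which the stronger is given.

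A pair of wide sites on the right arm, 5148 bp apart, ranked 3 and 6 on IV in the series-level list but lower in the replicates. The first, at 14610425 to 14614727, was 4303 bp wide and the widest outside the window. Its −log10 value was 103 in the series-level list, 22.8 in replicate 1 (rank 18 on IV) and 18.5 in replicate 2 (rank 31), where both replicates split it into 2 sites. The second, at 14619876 to 14623522, had 86.4 in the series-level list, 25.4 in replicate 1 (rank 14) and 14.5 in replicate 2 (rank 57).

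Near the right end, the site at 17277668 to 17280090 had 97.6 in the series-level list, 33.5 in replicate 1 and 43.3 in replicate 2. It belongs to a cluster of 3 repeated sites that lies beyond the 384-kb gap. At the edge of that gap stood the narrowest of the 50 strongest repeated sites of IV, at 17249671 to 17250049, which was 379 bp wide and had 44.2, 20.7 and 20.6 in the series-level list, replicate 1 and replicate 2. The next narrowest of the 50 were 460 bp wide at 11068217 to 11068676 in the centre and 466 bp wide at 3294480 to 3294945 in the left arm.

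On the left arm the site at 2601900 to 2604139 was the strongest in the series-level list, with 95.6, and in replicate 1, with 39.8. In replicate 2 it had 31.2, below the 41.2 of another left-arm site, at 654522 to 655461. Replicate 1 gave it as 1 site of 2183 bp, and replicate 2 as 2 sites of 751 bp together. The remaining sites among the 10 strongest were in the centre at 10820050 to 10822635, 8431601 to 8433264, 8527272 to 8528200 and 10251900 to 10253688. Their values lay between 77.4 and 81.6 in the series-level list, between 28.1 and 31.8 in replicate 1 and between 26.2 and 32.05 in replicate 2.

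Of the 10 strongest repeated sites, ranked and measured in the series-level list, 5 were in the centre, 1 in the left arm and 4 in the right arm, and 9 were at least 1 kb wide. Among these 9, the site at 10251900 had 958 bp in replicate 1, and the site at 2601900 had 751 bp in 2 pieces in replicate 2. By replicate rank another 2 sites stood among the first 10 of IV in both replicates, and both were under 1 kb wide in every list. The site at 4749821 to 4750501 in the centre ranked 3 in replicate 1 (47.9, 424 bp) and 5 in replicate 2 (41.03, 416 bp), and 11 in the series-level list (72.97). The site at 654522 to 655461 in the left arm ranked 5 in replicate 1 (39.6, 413 bp) and 4 in replicate 2 (41.2, 586 bp), and 16 in the series-level list (63.8). In total 9 sites were among the first 10 of IV in both replicates. Among the 50 strongest repeated sites of the series-level list, the centre held 32, the left arm 9 and the right arm 9, and the median width in that list was 1014 bp. Of all 386 repeated series-level sites outside the window, 235 were in the centre, 86 in the left arm and 65 in the right arm. No test of the strongest sites against these numbers was made.

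**Figure D5:**
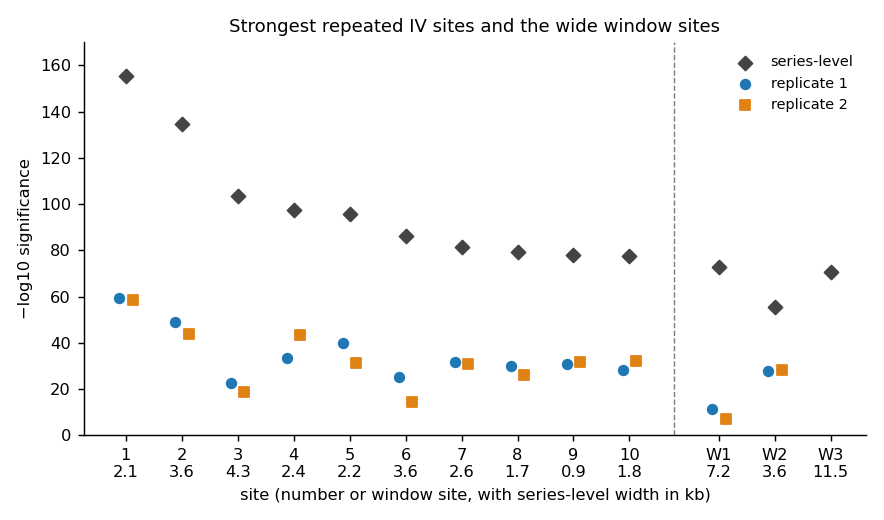
−log10 significance (vertical axis) of the 10 strongest chromosome IV sites found in both replicates and, right of the dashed line, of the 3 widest sites in the window (W1 to W3), in each list. Numbers on the horizontal axis give the series-level order and the width in kb. Site 1 has 156, 59.5 and 58.3 in the series-level list, replicate 1 and replicate 2, while W3 has 70.8 in the series-level list and no site in either replicate.

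The window from 9.04 to 9.11 Mb held 3 wide sites close to each other, at 9049854 to 9057093 (7240 bp), 9062418 to 9066037 (3620 bp) and 9067439 to 9078963 (11525 bp) in the series-level list. Elsewhere on IV the series-level list has 3 sites of 3 kb or more, none above 4303 bp. Sites covered 33.0% of the window in the series-level list, 15.2% in replicate 1 and 15.7% in replicate 2, against 3.42%, 1.33% and 1.45% of the rest of IV.

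The 3 wide sites repeated unequally. The middle one had a −log10 value of 55.3 in the series-level list, 27.96 in replicate 1 and 28.3 in replicate 2, and ranked 12 and 10 on IV in the replicates. The first had 72.8 in the series-level list but 11.5 in replicate 1 and 7.0 in replicate 2, where it ranked 78 and 198 on IV although it was the widest site of the chromosome in both (7066 and 7226 bp). The series-level value was 3.93 times the sum of the replicates' values there and 0.98 times at the middle site. Outside the window the median of this ratio was 1.39 over 372 sites matched one to one in all 3 lists.

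The widest, 9067439 to 9078963, had 70.8 in the series-level list (rank 13 on IV) and no site in either replicate. The other 4 series-level sites of the window, from 104 to 277 bp wide, had values between 3.47 and 6.23. Of these, the one at 9092147 to 9092250 was found in replicate 2 alone, with 3.66. RefSeq's gene table for build WBcel235 places nhr-11, the gene carried by the transgene, on chromosome IV. Its position was not set against these sites, because the builds differ, and a part of the transgene in these values was not tested.

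At each limit used, only the nearest site on either side was looked up. At the left boundary the nearest series-level sites had midpoints 20562.5 bp below it, with a −log10 value of 7.91, and 92815.5 bp above it, with 6.42. At the right boundary they were 51619.5 bp below and 38968.5 bp above, with 4.55 and 3.83. Just outside the window the series-level list had a site with 3.8 on its left and 1 with 7.73 on its right, and just inside it sites with 72.8 and 4.74.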

How the data were processed

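The 3 lists were deposited by the authors as sites called with PeakSeq, per the source column, in WormBase WS220, per the file headers. The sources used here do not give versions, settings, the aligner, the use of the input or how the series-level list was made. The 1 value per site was read as the authors' deposited p-value or q-value (which of them is not stated), from its range, the highest being 0.000999. From it −log10 values and ranks within a list were computed. Values of different lists are set side by side, although a common scale is not established.

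Sites overlapping by at least 1 bp counted as the same. The span of IV was taken to its last listed base (17488926). Intervals are exact Clopper-Pearson 95% intervals of shares and reflect counting error alone. Tests were two-sided exact binomial tests against length and Fisher's exact tests, with Benjamini-Hochberg adjustment. Functions for overlaps, clusters and gaps were tested on simulated data. Sites named in the text are the 10 strongest repeated ones, those of the window, the strongest unrepeated ones, the 5 longest gaps, the 5 largest clusters and the 3 widest and narrowest of the first 50 repeated sites. The sites at 4749821 and 654522, which rank high in both replicates, the 1-Mb bins and the longest series-level gap were chosen after their values were seen. Chromosome, boundaries, window and tests were chosen with earlier results of these data known. Alternatives were other overlap rules, the stronger 50% of each list, either replicate alone, shifted boundaries and other cluster limits. Input samples entered no comparison. Python 3.11.15, pandas 2.3.3, numpy 2.4.6 and scipy 1.17.1 were used.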

Additional observations from a re-analysis of the deposited data

How the results depend on the processing

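The share of IV sites in the centre stayed above its length under all 8 alternatives run. Where these used repeated sites, the exact binomial p lay between 0.000162 and 0.00267, unadjusted. Either replicate list as a whole, the other alternatives, gave 6.69e-06 (replicate 1) and 1.00e-05 (replicate 2) by the same test. The share itself moved with the boundaries, to 55.5% and 66.1% with a centre 0.5 Mb narrower and wider at each side. Under a reciprocal overlap of 50% it was 59.7%, the lowest at unchanged boundaries. In the stronger 50% of each list, 84.6% of replicate 1 and 77.9% of replicate 2 sites on IV were found in the other replicate, and the difference from the other chromosomes changed sign without passing the test. A reciprocal overlap of 50% gave 20.4% of series-level sites in both replicates and turned the difference of centre and arms. Without replicate 1 or 2 this share was 33.4% or 30.1%, since 1 list sufficed. The median width was 375 bp with midpoints within 100 bp, 468 bp in the stronger 50%, and 363 to 372 bp in the single replicate lists. Clusters numbered 6 with at most 2 kb and 28 with at most 10 kb between sites, 15 under a reciprocal overlap of 50%, 11 with midpoints within 100 bp, 10 in the stronger 50%, and 31 to 42 in the single lists, which hold more sites by construction. The longest gap was 484 kb in the stronger 50%, and 261 to 384 kb in the single lists. Of 39 values recomputed, 25 were counted as kept. Shares had to keep direction and side of the threshold, and widths and gaps to stay within the spread of the replicates. Cluster counts were held to a set ratio to the main count of 20, which 2 of 7 (15 and 28) met. No paired analysis was possible because input sites were not analysed here, which leaves ChIP as the 1 group with values and no block of replicate numbers to fit. Read depth is unknown and limits what can be said of sites found in 1 list.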

Other observations

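At 372 IV sites matched one to one in all 3 lists, the ratio of the series-level −log10 value to the sum of the replicates' values ran from 0.77 to 2.40, with 6 sites below 1 and 8 above 2. It was higher at wide sites, with a median of 1.33 in the narrowest 25% by replicate width (33 to 302 bp) and 1.45 in the widest (544.5 to 2100 bp). By strength it went the other way, with 1.45 in the weakest 25% by the replicates' sum and 1.31 in the strongest. Spearman's rho of the ratio across these sites was 0.33 with width and -0.29 with that sum. Among the 6 below 1 were the sites at 4749821 and at 654522, which ranked high in both replicates, with 0.82 and 0.79. At the wide right-arm pair, where sites are split, the ratio to the strongest pieces was 2.51 at 14610425 and 2.16 at 14619876. By region the median was 1.39 in the centre, 1.40 in the left arm and 1.37 in the right arm. By chromosome it was 1.39 on IV and 1.40 on I, against 1.02 to 1.09 on II, III, V and X. No cause of these ratios was tested.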
